A study of Trichoderma cf. simile with 24 samples.

Results

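A set of 108 genes of the fungus Trichoderma cf. simile WF8 stood low 3 days after 9,10-dibutoxyanthracene was added to the culture and, by the choice made here, stood less far from the control 1 day after it. They were chosen by their FPKM (read fragments scaled to gene length and library size) from 12486 numbered gene models in a table of 13298 loci. The measured value that chose them was log2(mean FPKM of 3 flasks + 1) per group. With dibutoxyanthracene at day 3 it had to lie at least 1 below the control of that day and at least 1 below the cultures with 4-phenoxybenzoic acid. The differences from the control had to stay under 1 in size with dibutoxyanthracene at day 1 and with phenetole at both days, as had the control's own difference between the days. Of 775 numbered genes at least 1 below the day 3 control, 393 were also at least 1 below 4-phenoxybenzoic acid. The bound on dibutoxyanthracene at day 1 left 189, the bounds on phenetole left 131 and then 117, and the bound on the control left 108.

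RNA from mycelium of shaken flasks was sequenced as 24 libraries, 3 in each of 8 groups. The same flask numbers occur at day 1 and at day 3, and the labels do not say whether they mark the same culture. The added compounds are small aromatic ethers that stand as models for bonds in lignite, or brown coal. Dibutoxyanthracene carries butoxy groups on a fused ring system, 4-phenoxybenzoic acid joins a benzoic acid to a phenyl ring through oxygen, and phenetole is ethyl phenyl ether. The groups were dibutoxyanthracene at 5 mg/L, 4-phenoxybenzoic acid at 10 mg/L, phenetole at 200 mg/L and the control, each at day 3 and at day 1. All were grown from strain WF8 for 60 h at 29 °C and 180 rpm in 100 mL of a broth with 40 g/L maltose and 10 g/L peptone before the addition. Dibutoxyanthracene and 4-phenoxybenzoic acid came from stocks of 0.2 g/L in dichloromethane, so their doses correspond to 2.5% and 5% of the culture volume as solvent. Phenetole was added undiluted. The sources used here do not give whether the control received dichloromethane, or the copper, manganese and veratryl alcohol that the treatment text also lists. An effect of a compound can therefore not be told apart from one of its solvent, and the levels with dibutoxyanthracene and 4-phenoxybenzoic acid are set side by side at unequal doses. The labels number the flasks but do not call them separate cultures that were sampled a single time. The p-values therefore cover the spread among these samples, part of which may be technical.

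Trichoderma species are filamentous, often wood-associated fungi known for secreted enzymes that break down plant cell walls. Fungi take up and modify aromatic compounds with oxidising enzymes such as cytochrome P450s, and expel toxic ones with membrane transporters. In a batch culture on sugar and peptone, nutrient supply, growth and sporulation programmes change with time, and transcript levels change with them. The deposited tables give a name to 0 of the gene IDs, so no role can be given to a single gene, and lists of genes by role could not be scored. The genes are described here by level, length and behaviour across the flasks.

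The libraries held 16767477 to 19842379 counts and between 10894 and 11633 loci with a count. Within groups, log2 CPM, the counts scaled to library size, correlated with r from 0.956 to 0.993 across loci. TMM scaling factors, which rise and fall with the composition of a library, ran from 0.618 to 1.30. They were 0.618 to 0.759 with phenetole at day 1, and control flask 3 of that day lay in this range at 0.740. Of the 108 genes, 105 had at least 10 counts in every library. Flask 3 with 4-phenoxybenzoic acid was the lowest of its group in 105 of the 108 genes at day 3 and in 83 at day 1. The day 3 libraries of that group took part in the choice of genes, so the summary values that rest on them are also given without flask 3. In bulk RNA, fewer cells of a kind and less RNA per cell cannot be told apart.

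Across the 8 groups, the mean FPKM was lowest with dibutoxyanthracene at day 3 in 103 of the 108 genes, where it was lowest in 21.3% of the 10842 loci with enough counts for testing. The conditions nearly fix this order, so nothing is read from the count. The other 5, named after their values were seen, were lowest with 4-phenoxybenzoic acid at day 1 (Trisim1_006129) or with phenetole at day 1 (Trisim1_006438, Trisim1_005345, Trisim1_001608 and Trisim1_008728). The conditions set no bound on 4-phenoxybenzoic acid against the control. At day 3, 3 genes were at least 1 below the control with that acid too on the log2(mean FPKM + 1) scale, namely Trisim1_010306, Trisim1_009306 and Trisim1_007546, and Trisim1_006031 was at least 1 above it. Without flask 3 of the acid, only Trisim1_010306 was at least 1 below and Trisim1_006031 at least 1 above. Flasks disagreed widely for Trisim1_010306, Trisim1_009306 and Trisim1_006031, as their values further on show. The quasi-likelihood test of edgeR was run on the counts of all loci, with calls made where the p adjusted by the Benjamini-Hochberg method was under 0.05. It called 0 of the 108 genes lower and 0 higher with the acid than in the control at day 3. Of all loci it called 0.0369% in each direction. At an unadjusted p under 0.05, 2 of the 108 were lower and 1 higher. No share of all loci at the unadjusted limit is given, so nothing is read from those counts. By mean FPKM at day 1, 10 genes were at least 1 below the control with 4-phenoxybenzoic acid and 3 at least 1 above it.

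As values that made the choice, the day 3 levels are given as a description. The median over the 108 genes of the group mean at day 3 was 8.94 FPKM with dibutoxyanthracene, 24.4 with 4-phenoxybenzoic acid, 29.2 with phenetole and 23.4 in the control. Without flask 3, the median with 4-phenoxybenzoic acid was 29.2 as well. The values of day 1 were 23.7 with dibutoxyanthracene, 27.1 with 4-phenoxybenzoic acid, 22.7 with phenetole and 27.5 in the control. The median gene was thus 2.82-fold lower with dibutoxyanthracene than in the control at day 3, with genes from 2.01-fold to 11.0-fold lower. On the log2(mean FPKM + 1) scale this was a median difference of -1.28, ranging from -3.35 to -1.0006, beside -0.01 over 7922 numbered genes whose day 3 control level lay in the range of the 108. A difference of -1.5 or lower was reached by 35 genes, of -2 or lower by 13 and of -3 or lower by 4. Against 4-phenoxybenzoic acid the median difference was -1.24, and -1.45 without flask 3 of the acid.

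The genes nearest to the limit of -1 lay close together on either side. Inside it, Trisim1_003186 had means of 92.1 FPKM with dibutoxyanthracene and 185 in the control at day 3, Trisim1_008728 had 27.4 and 55.8, and Trisim1_001990 had 2.91 and 6.86. Outside it but meeting every other condition, Trisim1_000746 had 49.7 and 100.1 FPKM, Trisim1_004383 had 3.96 and 8.82, and Trisim1_007513 had 1.39 and 3.72. The differences were -1.0006 for the nearest gene inside and -0.996 for the nearest outside, so membership at this edge separates genes of nearly the same fold.

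As a share of all counts at day 3, the 108 genes took 0.433% ± 0.0884 with dibutoxyanthracene, 1.71% ± 0.490 with 4-phenoxybenzoic acid, 1.79% ± 0.194 with phenetole and 1.40% ± 0.253 in the control (mean ± SD, n = 3 flasks each). Flasks 1 and 2 with 4-phenoxybenzoic acid alone gave 1.98% ± 0.210 (SD, n = 2). At day 1 the shares were 1.41% ± 0.155 with dibutoxyanthracene, 1.64% ± 0.352 with 4-phenoxybenzoic acid, 0.835% ± 0.213 with phenetole and 1.44% ± 0.445 in the control. The phenetole share of day 1 was the second lowest, while the FPKM of those libraries, which carry their own library scaling, were not low to the same degree.

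**Figure D1:**
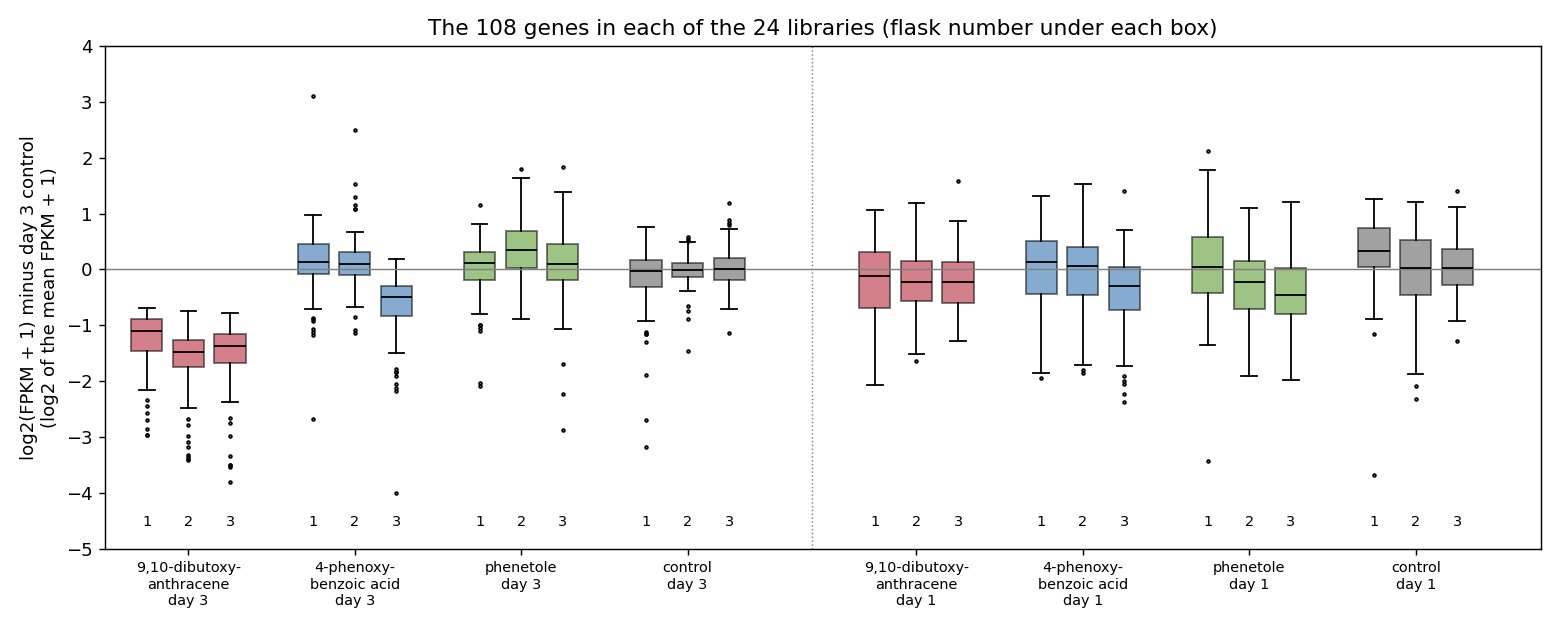
Each box holds the 108 genes in 1 of the 24 libraries, as log2(FPKM + 1) minus the log2(mean FPKM + 1) of the day 3 control, with groups along the horizontal axis and flask numbers under the boxes (boxes span the quartiles, lines mark medians, dots are genes beyond the whiskers). The dibutoxyanthracene flasks of day 3 have medians of -1.10, -1.47 and -1.37, and flask 3 with 4-phenoxybenzoic acid has -0.50 at day 3 and -0.30 at day 1.

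The 3 dibutoxyanthracene flasks of day 3 were not equally low. Relative to the day 3 control level, their medians over the 108 genes were -1.10, -1.47 and -1.37 in flasks 1, 2 and 3 on the log2(FPKM + 1) scale. Flask 1 was the highest of the 3 in 89 genes, flask 2 the lowest in 64 and flask 3 the lowest in 39. A distance of at least 1 below the control level was reached by 65 genes in flask 1, 105 in flask 2 and 102 in flask 3. The control flasks of day 3 had medians of -0.03, -0.01 and 0.01, and the dibutoxyanthracene flasks of day 1 had -0.11, -0.22 and -0.22. Over the 7922 genes of like level, the dibutoxyanthracene flasks of day 3 had medians of -0.01, -0.06 and -0.03. The mean of these 3 flasks made the choice, so their low medians describe the set and support nothing. Flask 1 was the nearest of them to the control.

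Whether flasks overlapped was counted gene by gene. In 106 genes all 3 dibutoxyanthracene flasks of day 3 lay below all 3 control flasks of that day, where 21.4% of the 10842 loci did so. In 103 genes they lay below all 3 flasks with 4-phenoxybenzoic acid, against 24.6% of these loci, and in all 108 genes below flasks 1 and 2 of the acid, against 31.1%. In 64 genes they were the 3 lowest of all 24 libraries, against 5.45% of these loci. Since the group means of day 3 made the choice, nothing is read from these counts. The genes with an overlap were named after their values were seen. Trisim1_010306 and Trisim1_009306 overlapped the control, and Trisim1_010306, Trisim1_004987, Trisim1_009837, Trisim1_002545 and Trisim1_009230 overlapped 4-phenoxybenzoic acid. In each of the last 5, a dibutoxyanthracene flask stood above flask 3 with 4-phenoxybenzoic acid.

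With dibutoxyanthracene at day 3 the edgeR test called 101 of the 108 lower than the control, where it called 10.8% of all loci lower. It called 100 lower than 4-phenoxybenzoic acid, where it called 10.7% of all loci lower, and 105 lower than phenetole, where it called 20.1% lower. Against day 1 of the same compound it called 76 lower at day 3, where it called 11.7% of all loci lower. The choice used the libraries of these comparisons, so the counts describe the set and support nothing. Without dibutoxyanthracene flask 2 the calls against the control were 67, while those over all loci went from 1172 to 526.

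The genes furthest below the control had uniformly low values with dibutoxyanthracene and values that often differed several-fold between flasks elsewhere. Trisim1_007546, with 969 bp the extreme by difference, had 24.2, 17.6 and 13.1 FPKM in dibutoxyanthracene flasks 1, 2 and 3 of day 3, against 79.2, 248 and 261 in the control flasks. With phenetole it had 186, 685 and 184 FPKM at day 3, and with 4-phenoxybenzoic acid 86.4, 135 and 54.4. Its dibutoxyanthracene flasks were below every other library, and its mean was 10.7-fold lower than in the control. At day 1 the same gene had 114, 116 and 155 FPKM with dibutoxyanthracene, against 333, 57.2 and 124 in the control, where the 3 control flasks enclosed the dibutoxyanthracene ones.

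Trisim1_005282, of 2334 bp, had 11.3, 8.63 and 7.53 FPKM with dibutoxyanthracene at day 3, against 24.9, 143 and 118 in the control. Control flask 1 was the lowest of its group and still lay above all dibutoxyanthracene flasks. At day 1 with dibutoxyanthracene it had 51.6, 101 and 168 FPKM, so that its mean was 11.6-fold lower at day 3 than at day 1 of that compound, the widest such ratio of the 108.

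Trisim1_008732, of 1212 bp, combined a high level with a wide difference. It had 36.0, 25.2 and 22.7 FPKM with dibutoxyanthracene, against 231, 262 and 306 in the control at day 3, a 9.53-fold lower mean. With 4-phenoxybenzoic acid it had 272, 126 and 122 FPKM, and with phenetole 355, 248 and 500.2. All of these flasks lay well above the dibutoxyanthracene ones. At day 1 its dibutoxyanthracene flasks had 257, 109 and 117 FPKM, all below the control flasks at 362, 276 and 315, and its difference of -0.98 was just inside the bound for that day.

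Several of the widest differences rested on control flasks that disagreed. Trisim1_010306, of 690 bp, had 18.3, 12.9 and 11.3 FPKM with dibutoxyanthracene at day 3, against 12.8, 73.9 and 286 in the control. Control flask 1 lay among the dibutoxyanthracene flasks, and the ratio of means, 8.77, came from control flasks 2 and 3. Trisim1_009306, of 2671 bp, had 2.62, 2.13 and 0.874 FPKM with dibutoxyanthracene, against 2.35, 29.9 and 29.7 in the control, again with flask 1 inside the dibutoxyanthracene range. Its ratio of means was the widest of the 108, at 11.0.

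Trisim1_006031, of 1021 bp, differed most from 4-phenoxybenzoic acid. It had 2.88, 0.855 and 2.08 FPKM with dibutoxyanthracene at day 3, against 167, 109 and 6.89 with 4-phenoxybenzoic acid. The flasks with 4-phenoxybenzoic acid spanned a 24.2-fold range, with flask 3 far below the others. The day 3 control of this gene had 11.0, 9.52 and 35.2 FPKM, and its day 1 control had 0.526, 26.3 and 33.0. A flask of the day 1 control was thus lower than any dibutoxyanthracene flask of day 3.

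Other genes at this end had day 3 control flasks that differed by a smaller fold than those of Trisim1_010306 and Trisim1_009306. Trisim1_011460, of 1723 bp, had 3.41, 1.16 and 1.55 FPKM with dibutoxyanthracene, against 13.8, 18.6 and 16.0 in the control at day 3. Trisim1_001989, of 3764 bp, had 7.23, 4.27 and 4.71, against 19.1, 64.3 and 48.6. Trisim1_011308, of 930 bp, had 1.76, 0.828 and 0.960, against 4.93, 13.0 and 9.56. In these 3 genes the groups did not overlap, and the means were 7.90-fold, 8.15-fold and 7.74-fold lower with dibutoxyanthracene.

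**Figure D2:**
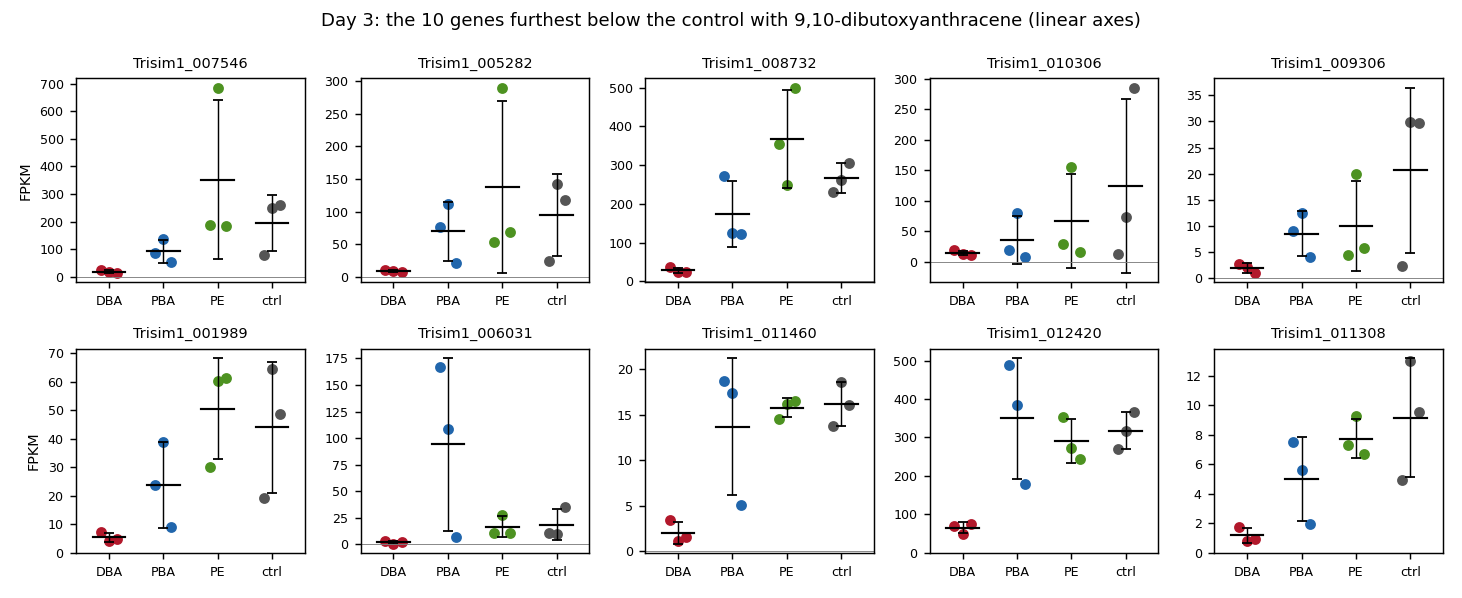
Each panel shows 1 of the 10 genes with the lowest difference from the day 3 control, with the FPKM of single flasks as points on a linear axis, a line and bar for mean ± SD (n = 3), and the day 3 groups along the horizontal axis (DBA dibutoxyanthracene, PBA 4-phenoxybenzoic acid, PE phenetole, ctrl control). The dibutoxyanthracene flasks of day 3 lie low in every panel, from 24.2 to 13.1 FPKM for Trisim1_007546, while control flask 1 lies among them for Trisim1_010306 and Trisim1_009306.

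The most abundant of the 108 genes was a short model. Trisim1_011802, of 327 bp, had 1867, 1003 and 1635 FPKM with dibutoxyanthracene at day 3, against 5171, 4554 and 4949 in the control. With 4-phenoxybenzoic acid it had 8857, 4135 and 2264, and with phenetole 3719, 4188 and 4903. The dibutoxyanthracene flasks lay below all other flasks of day 3, and the mean was 3.26-fold lower than in the control. At day 1 it had 3005, 3552 and 1217 FPKM with 4-phenoxybenzoic acid, so flask 3 of that group stood within the range of the dibutoxyanthracene flasks of day 3. Without this gene, the share of counts taken by the set was 0.388% ± 0.0773 with dibutoxyanthracene and 1.23% ± 0.215 in the control at day 3 (SD, n = 3 each).

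Trisim1_000018, of 3850 bp, was the next most abundant in the day 3 control. It had 199.7, 151 and 137 FPKM with dibutoxyanthracene, against 624, 438 and 648 in the control, and its mean was 3.50-fold lower. All other libraries held at least 354 FPKM, the value of flask 3 with 4-phenoxybenzoic acid at day 3. Its dibutoxyanthracene flasks of day 1, at 505, 553 and 587 FPKM, lay in the range of the day 3 control.

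Trisim1_012420, of 886 bp, was among both the widest differences and the most abundant genes. It had 70.2, 49.0 and 76.1 FPKM with dibutoxyanthracene at day 3, against 269, 317 and 366 in the control. At day 1 it stood above the control with dibutoxyanthracene, with 296, 441 and 421 FPKM against 177, 252 and 185 in the control. The direction of its difference from the control thus turned between the days, with values of -2.27 at day 3 and 0.91 at day 1 on the log2(mean FPKM + 1) scale, the second of them the largest that the 108 genes had upward.

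Other abundant genes had narrower differences and little spread. Trisim1_006222 had 145, 109 and 124 FPKM with dibutoxyanthracene, against 323, 318 and 327 in the control at day 3, a 2.57-fold lower mean. Trisim1_012110 had 139, 146 and 145, against 316, 261 and 291, a 2.02-fold lower mean with no overlap. Trisim1_005827 had 168, 132 and 164 FPKM, against 433, 370.3 and 362, a 2.51-fold lower mean. For these genes the gap between the groups was wider than the range within either group.

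Trisim1_007176 had 119.8, 118 and 112 FPKM with dibutoxyanthracene, against 191, 252 and 358 in the control at day 3. Its phenetole flasks were high at both days, with 436, 520.4 and 364 FPKM at day 3 and 479, 571 and 616 at day 1. The remaining abundant genes, Trisim1_007490 and Trisim1_000778, were 2.23-fold and 2.21-fold lower with dibutoxyanthracene than in the control at day 3, without overlap.

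Within the dibutoxyanthracene cultures, the genes were lower at day 3 than at day 1, a difference that the choice shaped. It set the day 3 level against the control and bounded both the day 1 difference and the control's own change. The median over the 108 genes was -1.24 on the log2(mean FPKM + 1) scale, from -3.41 to -0.27, beside -0.02 over the 7922 genes of like level. At or below -1 were 70 genes, without a share of the genes of like level. These values describe the set and support nothing. In the control, the difference of day 3 from day 1 had a median of -0.23, bounded by the choice. At day 1 the genes leaned below the control with dibutoxyanthracene, with a median difference of -0.48, bounded by the choice. Over the 7922 genes of like level it was 0.05. In all, 81 genes were below the control at day 1 with dibutoxyanthracene and 52 of these were at or below -0.5. The medians against the same control were also below 0 with phenetole, at -0.39, and with 4-phenoxybenzoic acid, at -0.26. Flask 1 of this shared control was the high one, as the day 1 control flasks had medians of 0.33, 0.03 and 0.03 relative to the day 3 control level. Without control flask 1, 2 or 3 of day 1, the median fitted log2 difference with 4-phenoxybenzoic acid was -0.09, -0.34 and -0.32. The edgeR test called 17 of the 108 lower and 4 higher than the control at day 1 with dibutoxyanthracene, where it called 16.9% of all loci lower and 14.9% higher.

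With phenetole, the median difference from the control was 0.21 at day 3, with 80 genes above 0, and -0.39 at day 1, with 77 genes below 0. At day 3 edgeR called 1 of the 108 genes higher and 0 lower, where it called 1.52% of all loci higher and 1.90% lower. With phenetole at day 3, 14 of the 108 were higher and 1 lower at an unadjusted p under 0.05. The shares of all loci are for adjusted calls and do not serve as a measure for these unadjusted counts, from which nothing is read. At day 1 edgeR called 2 higher and 19 lower, where it called 12.3% of all loci higher and 15.2% lower. Phenetole at day 3 was the highest of the 8 groups for 32 genes and the day 1 control for 31. No share of all loci is given for these counts, and the choice bounded both groups, so nothing is read from them. Relative to phenetole, dibutoxyanthracene at day 3 stood lower by a median of -1.62, and 102 genes were at or below -1. The doses were 200 and 5 mg/L, and the bounds on phenetole were part of the choice.

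The cultures with 4-phenoxybenzoic acid at day 1 were the only libraries that the choice did not use. They were tested against the control of that day, whose libraries did take part in the choice, through the bounds on dibutoxyanthracene, phenetole and the control's own change. The test is therefore independent of the choice on the side of the acid only. The median fitted log2 difference over the 108 genes was -0.26, beside -0.02 over all 10842 loci. The edgeR test called 14 of the 108 genes lower, or 13.0%, where it called 13.4% of all loci lower. It called 4 genes higher, or 3.70%, where it called 10.5% of all loci higher. At an unadjusted p under 0.05 the numbers were 22 lower and 5 higher, without a share of all loci at that limit to set beside them. In 24 genes, or 22.2%, all flasks with 4-phenoxybenzoic acid lay below all control flasks, against 19.7% of all loci. In 3 genes, or 2.78%, they lay above them, against 18.0% of all loci. With all flasks in the fit, the share of genes called lower was near that of the table as a whole. The share called higher was below that of the table. The calls moved with single flasks. Without flask 1, 2 or 3 of 4-phenoxybenzoic acid, 5, 8 and 3 genes were called lower, beside 908, 1002 and 1074 of all loci. Without control flask 1, 2 or 3, 9, 10 and 9 were called lower, beside 1511, 1324 and 1044 of all loci. In each of these fits the share of the 108 called lower was below that of all loci. Those called higher were 7 without control flask 1 and 2 without control flask 3, beside 1422 and 760 of all loci.

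Among the genes that rose with 4-phenoxybenzoic acid at day 1, Trisim1_006438, of 3644 bp, had 48.5, 44.5 and 28.4 FPKM, against 10.9, 13.8 and 9.41 in the control. All 3 flasks were above the control flasks, with a log2 difference of 1.85 ± 0.31 (SE) and an adjusted p of 0.000284 by edgeR. The same gene was low with phenetole at day 1, at 6.79, 4.78 and 4.23 FPKM, and low with dibutoxyanthracene at day 3, at 7.55, 4.69 and 7.50. At day 1 with dibutoxyanthracene it had 25.8, 20.9 and 14.1 FPKM, all above the control flasks of that day.

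Trisim1_005588, of 3428 bp, had 220.4, 235 and 133 FPKM with 4-phenoxybenzoic acid at day 1, against 106, 108 and 101 in the control. Its groups did not overlap, and the log2 difference was 0.91 ± 0.22 (SE, adjusted p = 0.00518 by edgeR). At day 3 it had 37.2, 33.0 and 40.3 FPKM with dibutoxyanthracene, against 111, 109 and 101 in the control.

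Trisim1_001422, of 1053 bp, had 9.90, 8.55 and 6.03 FPKM with 4-phenoxybenzoic acid at day 1, against 3.99, 1.64 and 2.85 in the control. Its log2 difference was 1.53 ± 0.45 (SE, adjusted p = 0.0171 by edgeR), without overlap. Trisim1_005345, of 1191 bp, had 93.4, 121 and 54.8 FPKM, against 35.7, 59.4 and 35.0, so that flask 3 with the acid lay below control flask 2. Its log2 difference was 1.06 ± 0.29 (SE, adjusted p = 0.0108 by edgeR).

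Of the genes that fell with 4-phenoxybenzoic acid at day 1, Trisim1_006129, of 979 bp, changed most. It had 0.488, 0.479 and 0.0926 FPKM, against 1.94, 3.19 and 3.86 in the control, without overlap. The log2 difference was -3.04 ± 0.62 (SE, adjusted p = 0.00141 by edgeR). Its counts were small, with 2 in the lowest library. At day 3 it had 4.82, 1.84 and 1.27 FPKM with 4-phenoxybenzoic acid, against 2.10, 5.26 and 5.10 in the control, where the groups overlapped.

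Trisim1_011308 had 1.64, 2.27 and 1.46 FPKM with 4-phenoxybenzoic acid at day 1, against 4.46, 6.35 and 6.96 in the control, and its log2 difference was -1.70 ± 0.53 (SE, adjusted p = 0.0227 by edgeR). Trisim1_006185, of 4058 bp, had 1.10, 1.57 and 1.64 FPKM, against 2.18, 7.12 and 3.91, a log2 difference of -1.59 ± 0.46 (SE, adjusted p = 0.0157 by edgeR). Both sets of flasks were apart from their controls. Trisim1_004777, of 2042 bp, had 11.1, 13.2 and 13.1 FPKM, against 39.5, 20.9 and 42.6 in the control, with an adjusted p of 0.0339 by edgeR.

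Trisim1_004348, of 2867 bp, had 2.09, 2.55 and 1.58 FPKM with 4-phenoxybenzoic acid at day 1, against 3.85, 6.18 and 5.38 in the control (log2 difference -1.29 ± 0.36, SE, adjusted p = 0.012 by edgeR). It was as low with dibutoxyanthracene at that day, at 1.52, 2.05 and 2.81 FPKM, and lower at day 3, at 1.40, 1.16 and 1.22, against 3.81, 5.79 and 7.13 in the day 3 control. The other 9 genes called lower had log2 differences of -1.24 to -0.62.

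**Figure D3:**
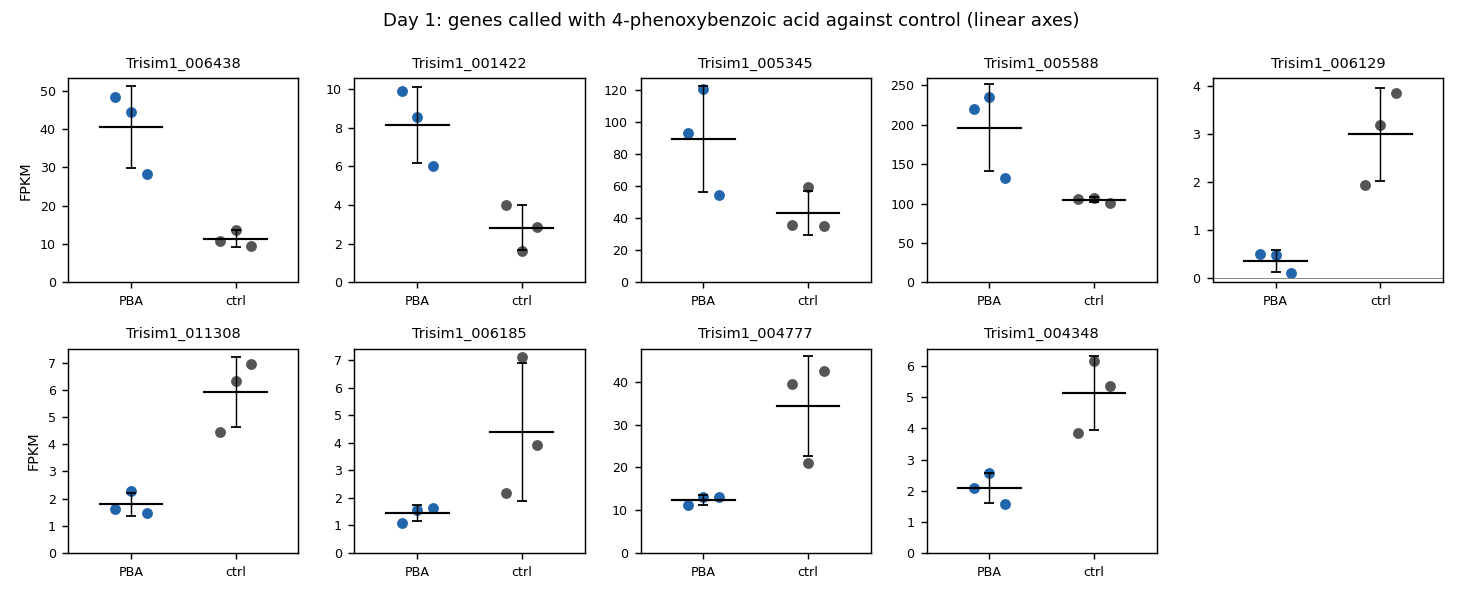
Each panel shows 1 of the 9 named genes called in 4-phenoxybenzoic acid against control at day 1, with the FPKM of single flasks as points on a linear axis, a line and bar for mean ± SD (n = 3), and both groups along the horizontal axis (PBA 4-phenoxybenzoic acid, ctrl control). Trisim1_006438 has 48.5, 44.5 and 28.4 FPKM with the acid, against 10.9, 13.8 and 9.41 in the control, and Trisim1_006129 has 0.488, 0.479 and 0.0926, against 1.94, 3.19 and 3.86.

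Flask 3 with 4-phenoxybenzoic acid was the lowest of its group at day 3 for 105 of the 108 genes, or 97.2%, where it was the lowest for 33.9% of the 7922 genes of like level. Its distance below the mean of flasks 1 and 2 had a median of -0.67 on the log2(FPKM + 1) scale, with all 108 genes below 0, from -4.10 to -0.08, beside a median of 0.04 for the genes of like level. In 83 genes it lay below the lowest control flask of day 3, as it did for 29.1% of the genes of like level. It lay above all 3 dibutoxyanthracene flasks in 103 genes. A level at least 1 above the dibutoxyanthracene group was reached in 101 genes by flask 1, in 101 by flask 2 and in 25 by flask 3. The choice required a distance between these groups, and no share of other genes is given, so nothing is read from these counts against dibutoxyanthracene. The day 3 flasks of this acid took part in the choice through their mean, a condition that the genes of like level did not have to meet. Whether the choice shaped the order of these flasks was not tested.

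At day 1, which the choice did not use for this acid, flask 3 was also the lowest of its group in 83 genes, or 76.9%, beside 40.4% of the genes of like level. Its median distance from the other flasks was -0.38, from -1.59 to 0.89, beside -0.02 for genes of like level, and 93 genes, or 86.1%, were below 0, beside 52.4%. Flask 3 was the lowest at both days in 82 genes, beside 18.6% of the genes of like level. Over all loci kept, the deviations from the group mean of flasks with the same number correlated between the days with this acid at r of 0.114 to 0.315, and those of flasks with unlike numbers at -0.268 to 0.124. The labels do not say whether flasks that share a number at both days are the same culture, and why flask 3 was low was not tested. Without flask 3 of day 3, 141 genes met the conditions and all 108 were among them. In that case edgeR called 107 of the 108 lower with dibutoxyanthracene than with 4-phenoxybenzoic acid, beside 1350 of the 10842 loci. The choice used this comparison, so nothing is read from the count.

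**Figure D4:**
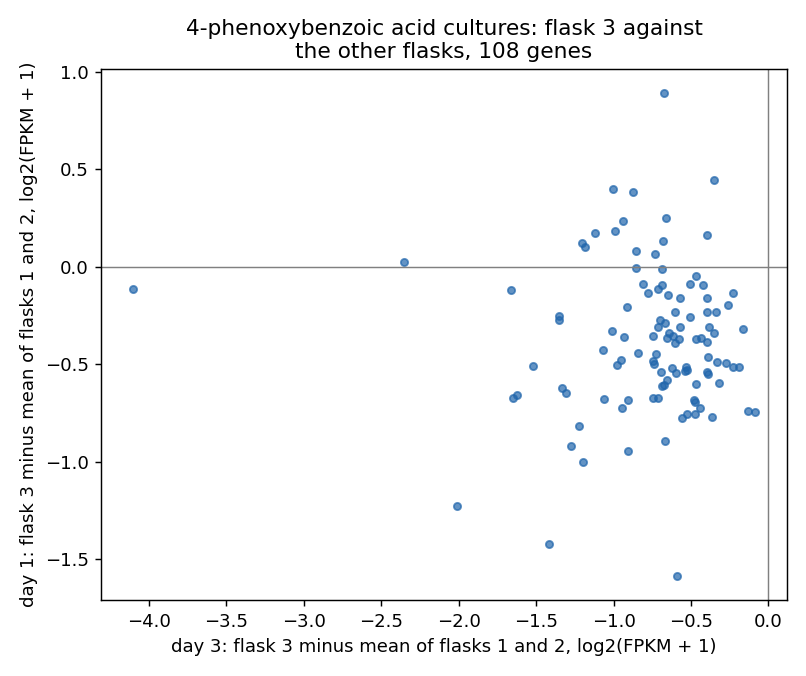
Each point is 1 of the 108 genes, with the log2(FPKM + 1) of flask 3 minus the mean of flasks 1 and 2 in 4-phenoxybenzoic acid cultures at day 3 on the horizontal axis and at day 1 on the vertical axis. All 108 points lie left of 0 and 93 lie below 0.

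Flasks of a group differed by less than 2-fold in the median gene. The ratio of the highest to the lowest flask of a group at day 3 had a median of 1.48 with dibutoxyanthracene, 1.79 with 4-phenoxybenzoic acid, 1.41 with phenetole and 1.47 in the control, and of 1.26 between flasks 1 and 2 of 4-phenoxybenzoic acid. A ratio of at least 4 was found in 0 genes with dibutoxyanthracene, 8 with 4-phenoxybenzoic acid (3 between its flasks 1 and 2), 6 with phenetole and 7 in the control. The widest were 3.50 with dibutoxyanthracene, 24.2 with 4-phenoxybenzoic acid (Trisim1_006031), and 9.68 with phenetole and 22.3 in the control (both Trisim1_010306).

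The genes were of ordinary length, with a median of 1491 bp and a range of 162 to 6168 bp, beside a median of 1557 bp for the genes of like level. Lengths were multiples of 3 in 63.0% of the 108 and in 73.4% of the genes of like level.

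Consecutive gene numbers occurred in 7 pairs, which held 14 of the 108 genes, with no longer run. The files do not say that numbers follow position in the genome. In the first pair, Trisim1_001989 was 8.15-fold and Trisim1_001990 2.35-fold lower with dibutoxyanthracene than in the control at day 3. In the second, Trisim1_002411 had 50.2, 38.2 and 40.8 FPKM with dibutoxyanthracene, against 107, 91.7 and 72.9 in the control. Its neighbour Trisim1_002412 had 48.9, 35.8 and 33.4 FPKM, against 127, 113 and 104. The members of this pair were alike in level in these groups and did not overlap with the control.

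In the third pair, Trisim1_004347 had 1.00, 0.374 and 0.286 FPKM with dibutoxyanthracene, against 1.84, 2.61 and 2.21 in the control, and Trisim1_004348 was described above. Numbered neighbours of the 108 that were not of the set counted 201, of which 139 had a like level. Their median difference with dibutoxyanthracene from the control at day 3 was -0.17, and 24 of them, or 17.3%, were at or below -1. Among the 7814 genes of like level outside the set, neighbours included, the median was -0.004 and 8.11% were at or below -1. Neighbouring genes may share reads where models overlap, and whether they do was not tested.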

How the data were processed

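Counting of reads by the authors used featureCounts 1.5.0-p3, per the submitters' processing notes. The sources used here do not give aligner, build or annotation. The deposited tables hold raw counts and FPKM for the same 24 libraries. The deposited FPKM match counts over length times a library size corrected by median-of-ratios factors, since the 12728 gene lengths they imply are whole numbers (tolerance 0.01 bp).

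The genes were found from the FPKM with a pseudocount of 1. They and the gene lists were chosen with earlier results of these data known. Counts were tested in R 4.3.3 with edgeR 4.0.16 (TMM, 1 coefficient for each of the 8 groups, all libraries in the fit), after filterByExpr with a minimum count of 10 had kept 10842 loci, all 108 genes among them. Adjusted p-values cover all loci kept. On data simulated for 4-phenoxybenzoic acid against control at day 1, 200 of 10842 genes were changed. Of these, 83% of 4-fold and 28% of 2-fold changes were recovered, and 4.31% of calls were false. The changed genes were drawn only from loci above a set mean count, so recovery in genes with few counts was not measured. In the real comparison edgeR called 1458 loci lower and 1143 higher, more than were changed here. Whether the false share holds there was not tested.

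Named genes are the 10 with the lowest difference from the day 3 control, the 10 most abundant in it, up to 5 called in each direction with 4-phenoxybenzoic acid at day 1, the 3 on either side of the limit, and the first 3 runs of consecutive numbers. Alternatives were DESeq2 1.42.0, limma 3.58.1 on log2(FPKM + 1) and log2(FPKM + 0.1), no filter, the compared groups alone, a block for flask number, each flask left out, and other pseudocounts, scalings and limits for the choice.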

Additional observations from a re-analysis of the deposited data

How the results depend on the processing

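The number of genes that met the conditions was 108 as reported. It was 45 with a pseudocount of 5 (39 shared with the 108), 17 with differences of at least 1.5 and 45 with bounds of 0.75. Tighter limits leave fewer genes by construction. A larger pseudocount shrinks log2 differences by construction, both the required and the bounded ones, and what each gave to the net change was not tested. With a pseudocount of 0.5 the number was 133 (98 shared). It was 98 with logs averaged over flasks (91 shared), 123 with TMM-scaled FPKM (106 shared), and 84 to 156 with each flask left out. With 4-phenoxybenzoic acid at day 1, the 4 genes called higher were 2 when the fit held just these groups and 2 to 7 with each flask left out. The 14 called lower were 3 to 10 with each flask left out and 3 to 17 over all alternatives. With each flask left out, calls over all loci ran from 760 to 1422 higher and from 908 to 1511 lower. The cause was not tested. The median log2 difference of -0.26 ran from -0.34 to -0.09, the last without control flask 1 of day 1. Calls lower with dibutoxyanthracene at day 3 were 67 to 92 against the control, 70 to 107 against 4-phenoxybenzoic acid and 59 to 70 against day 1 with each flask left out. Over all loci these calls were 526 to 931, 491 to 1350 and 735 to 995. Of the named genes, Trisim1_004777 lost its call in 5 of 12 alternatives, Trisim1_001422, Trisim1_005345 and Trisim1_011308 in 3, Trisim1_006185 in 2, Trisim1_004348 and Trisim1_005588 in 1, and Trisim1_006129 and Trisim1_006438 in 0, with adjusted p-values up to 0.111; no direction reversed.

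Deviations of flasks that share a number correlated at 0.0518 to 0.302 between 4-phenoxybenzoic acid and the control at day 1. Flasks with unlike numbers gave -0.358 to 0.0383 there, all below the same-number values. Between dibutoxyanthracene and the control at day 3, same-number values were -0.137 to 0.154 (unlike numbers -0.233 to 0.156). Between dibutoxyanthracene and 4-phenoxybenzoic acid at day 3 they were -0.0691 to 0.0404 (unlike numbers -0.0856 to 0.133). Between the days with dibutoxyanthracene they were 0.0023 to 0.165 (unlike numbers -0.184 to 0.0784). The main tests did not take the numbers as pairs, also where the same-number values stood apart, with the acid against the control at day 1. Between the days with 4-phenoxybenzoic acid, all 3 same-number values were over 0.1 (0.114 to 0.315). The edgeR test of these days, run without pairs, called 1 of the 108 genes lower and 1 higher at day 3. Of all loci it called 1.22% lower and 1.82% higher. With a replicate block for flask number, 5 genes were called higher and 14 lower with 4-phenoxybenzoic acid at day 1, beside 1383 and 1617 of all loci. With this block, 102 genes were called lower with dibutoxyanthracene than in the control at day 3, beside 1373 of all loci. With 14 counts over the dibutoxyanthracene libraries of day 3 in the least counted gene, depth limits the precision of the lowest values.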

Other observations

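Of the 812 loci outside the numbered gene models, 1 met the same conditions. This locus, of 1218 bp, had 2.23, 1.90 and 2.09 FPKM with dibutoxyanthracene at day 3. It had 8.03, 8.50 and 4.92 FPKM with 4-phenoxybenzoic acid, 9.43, 9.54 and 11.4 with phenetole, and 6.66, 6.44 and 5.84 in the control at that day. The dibutoxyanthracene flasks lay below all other flasks of day 3, and flask 3 was again the lowest with 4-phenoxybenzoic acid. At day 1 it had 6.79, 5.42 and 4.67 FPKM with dibutoxyanthracene and 11.7, 6.04 and 8.10 in the control.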
